A study of Mus musculus with 8 samples.

Results

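The enzymes that build cholesterol and fatty acids, with the proteins that sense sterols and switch those enzymes on, were followed in mouse CD4+ T cells through activation and treatment with a kinase inhibitor. The set held 33 genes: 17 of the sterol branch, 11 of the fatty acid branch and 5 of sterol sensing and transport. They were chosen by name, and each was represented by the probe set, a group of short probes for a single transcript, that had the highest mean over the 8 arrays. All 33 were among the 18193 genes with 1 symbol on the array, and all 33 were among the 13983 genes bright enough to be tested.

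The cells, primary CD4+ T cells from the BALB/c strain, spent 1 h in culture either alone or with anti-CD3 and anti-CD28, antibodies that engage the antigen receptor and its CD28 costimulator. They then had 6 h with 4 µM dorsomorphin or with the solvent, DMSO. The 4 groups were stimulated cells with dorsomorphin, stimulated cells with DMSO, unstimulated cells with dorsomorphin, and control cells with DMSO and no antibody, with 2 arrays each. Dorsomorphin blocks both the type I receptors of bone morphogenetic proteins and the energy-sensing kinase AMPK, so the groups do not separate those targets. Nothing in the labels ties the replicates to separate animals or cultures. The p-values therefore reflect the spread between these arrays only, and that spread may be technical. Precision is limited by the number of arrays.

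Cholesterol is made from acetyl-CoA by way of mevalonate, isoprenoid diphosphates, squalene and lanosterol. Fatty acids are made from the same acetyl-CoA by way of malonyl-CoA, and are then lengthened by elongases and given double bonds by desaturases. Both branches are known targets of the sterol regulatory element binding proteins (SREBPs), transcription factors held in the endoplasmic reticulum by SCAP and INSIG proteins while sterols are plentiful and cut free by membrane proteases when sterols fall. T cells that leave quiescence are known to raise this programme ahead of division, and AMPK is known as a kinase that phosphorylates acetyl-CoA carboxylase.

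Values are log2 of the deposited array signal. Differences are in log2 units with their standard errors (SE, n = 2 arrays per group), and adjusted p-values come from limma with Benjamini-Hochberg adjustment over all 13983 genes. A gene passed the test at an adjusted p under 0.05. Statements that groups do or do not overlap only describe the 2 arrays of each group. Genes that did not pass can be without overlap too, and the share of all genes without overlap is not given here. A working floor was set at log2 5.22, the 40th percentile of all values. Of the 33 genes, 30 were above it on all 8 arrays, Elovl6 and Scd1 on 6, and Fads2 on 5. Within groups the arrays had correlations of 0.937 to 0.953 over the tested genes, and the median signal per array was 45.4 to 74.5.

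The label of the cells was checked with marker genes. All 9 CD4+ T cell markers found on the array were above the floor on every array. Their summed signal was 43899 to 44750 in stimulated cells with dorsomorphin, 66483 to 70867 in stimulated cells, 30024 to 42358 in dorsomorphin-treated cells and 86979 to 87998 in control cells. The 10 myeloid and dendritic cell markers summed to 1605 to 2326, 1351 to 2841 and 1828 to 2220 in those treated groups, against 4471 to 5493 in control cells. The 5 CD8+ T and NK cell markers summed to 451 to 716, 545 to 640 and 424 to 693 in the same groups, against 1461 to 1846 in control cells. The 7 B cell markers summed to 493 to 506, 249 to 375 and 280 to 295 in those groups, against 552 to 664 in control cells. No marker was at 0 on any array. Each of the 4 sums was higher in both control arrays than on any other array, and the part of this in the differences from control below was not tested. In such bulk RNA, fewer cells of a type and less RNA per cell cannot be told apart.

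**Figure D1:**
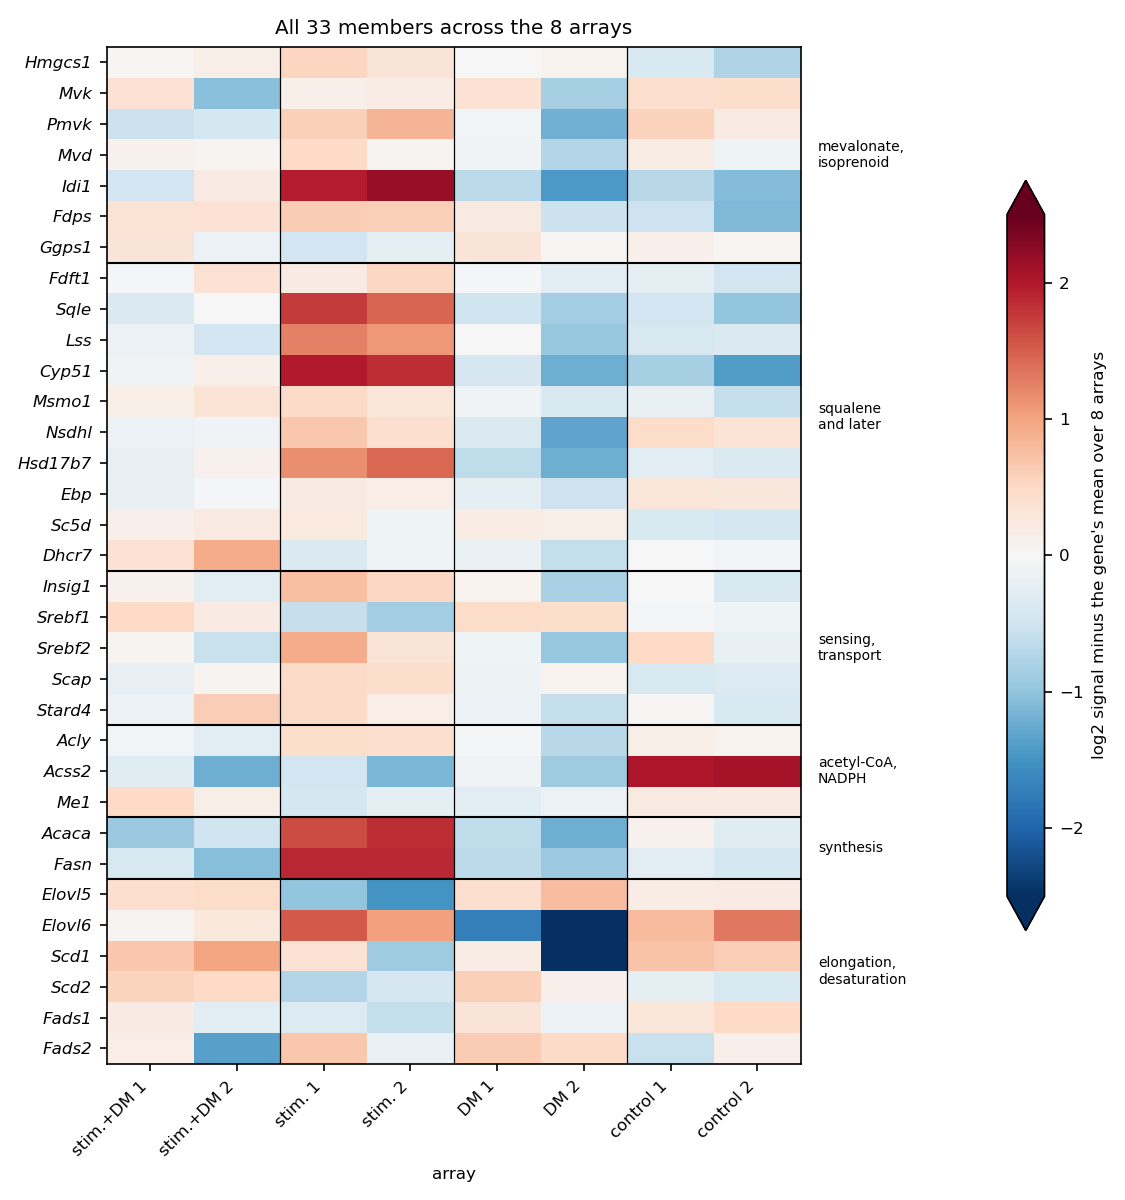
Log2 signal of the 33 genes on the 8 arrays, each gene shown as its difference from its own mean over the arrays. Columns are arrays, grouped as stimulated with dorsomorphin (DM), stimulated, dorsomorphin and control, and rows are ordered by role. The colour scale ends at 2.5 log2 units in each direction, and values beyond it take the end colour. Idi1, Sqle, Lss, Cyp51, Hsd17b7, Acaca and Fasn are reddest on both stimulated arrays without dorsomorphin, and Acss2 on both control arrays.

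Stimulation without the inhibitor raised 10 of the 33 genes and lowered 2. Among all tested genes, 8.98% passed the test upwards, 14.4% downwards and 23.4% in either direction. The sterol branch accounted for 7 of the rises and no fall. The fatty acid branch held 2 rises and 2 falls, and the sensing genes 1 rise. The median difference, stimulated minus control, was 0.72 over the sterol branch, -0.27 over the fatty acid branch and 0.49 over the sensing genes, beside -0.27 over all tested genes. After centring each array on its median these became 1.07 for the sterol branch and 0.08 for the fatty acid branch, with all tested genes also at 0.08, so the sign of the fatty acid median depended on the scaling. Under that scaling 9 members rose and 1 fell, and the split over all genes moved to 1001 higher and 1040 lower, beside 1256 higher and 2013 lower as deposited.

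In the mevalonate segment, 3 of 7 genes rose and none fell. Idi1 isomerizes isopentenyl diphosphate into its reactive partner, and it read 12.67 and 12.89 on the stimulated arrays and 10.02 and 9.63 on the control arrays. That is 7.74-fold higher (2.95 ± 0.38, adjusted p = 0.0103). Fdps, the farnesyl diphosphate synthase, read 11.91 and 11.88 in stimulated cells and 10.76 and 10.18 in control cells, a difference of 1.42 ± 0.34 (adjusted p = 0.0335). Both genes lay higher on each stimulated array than on either control array. Hmgcs1, the cytosolic HMG-CoA synthase, read 13.08 and 12.86 against 12.15 and 11.77 in control cells, 2.01-fold higher (1.01 ± 0.23, adjusted p = 0.0311). The kinases Mvk (-0.27 ± 0.57) and Pmvk (0.33 ± 0.40), the decarboxylase Mvd (0.26 ± 0.31) and the geranylgeranyl diphosphate synthase Ggps1 (-0.43 ± 0.26) did not pass, with adjusted p between 0.284 and 0.772. Here Hmgcs1, Idi1 and Fdps rose, with the 3 steps between Hmgcs1 and Idi1 that were measured not past the test.

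From squalene onwards, 4 of 10 genes rose and none fell. Cyp51, the demethylase of lanosterol, read 11.67 and 11.52 on the stimulated arrays and 8.85 and 8.28 on the control arrays. It was 8.17-fold higher (3.03 ± 0.35, adjusted p = 0.00926), the largest rise among the 33 in this fit. Sqle, the squalene epoxidase, read 11.50 and 11.21 in stimulated cells and 9.29 and 8.77 in control cells, which is 5.01-fold higher (2.33 ± 0.30, adjusted p = 0.0104). In both genes the groups stood more than 1 log2 unit apart at their nearest arrays. Hsd17b7, a reductase of sterol ketones, read 9.0 and 9.26 in stimulated cells and 7.55 and 7.46 in control cells (1.63 ± 0.28, adjusted p = 0.0165). Lss, the lanosterol synthase that closes the sterol rings, read 9.52 and 9.35 in stimulated cells and 7.86 and 7.90 in control cells (1.56 ± 0.35, adjusted p = 0.0293). All 4 of these genes were without overlap between the groups, as were Ebp and Dhcr7, which did not pass. A second and dimmer probe set of Lss differed by 0.64 (adjusted p = 0.540 in the fit over all probe sets).

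The other 6 later enzymes did not pass. Msmo1, an oxidase of sterol methyl groups, read 10.59 and 10.42 in stimulated cells and 9.93 and 9.51 in control cells (0.79 ± 0.25, adjusted p = 0.0733). Fdft1, the squalene synthase, read 10.77 and 11.07 in stimulated cells and 10.32 and 10.08 in control cells (0.72 ± 0.26, adjusted p = 0.101). These 2 genes were apart on the arrays but past the threshold only before adjustment. Nsdhl, Ebp, Sc5d and Dhcr7, which act near the end of the pathway, differed by 0.15 ± 0.35, -0.10 ± 0.21, 0.48 ± 0.22 and -0.20 ± 0.29 (adjusted p between 0.168 and 0.793). Probe sets of Sc5d disagreed: its second probe set read 8.23 and 8.19 in stimulated cells and 9.49 and 9.53 in control cells, a difference of -1.30 (adjusted p = 0.0191 in the fit over all probe sets).

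Of the sensing genes, Scap alone passed. Scap encodes the escort that carries SREBPs to the Golgi, and it read 11.69 and 11.65 on the stimulated arrays and 10.81 and 10.87 on the control arrays (0.83 ± 0.22, adjusted p = 0.0434). Insig1, an anchor that keeps the escort in the endoplasmic reticulum and is itself a known SREBP target, read 11.27 and 11.03 in stimulated cells and 10.50 and 10.12 in control cells (0.84 ± 0.37, adjusted p = 0.158). Scap varied less between replicates than Insig1, and the differences were of the same size. Srebf1, which encodes the SREBPs best known for fatty acid genes, read 10.92 and 10.63 in stimulated cells and 11.44 and 11.40 in control cells (-0.64 ± 0.23, adjusted p = 0.0932). Srebf2, which encodes the SREBP best known for sterol genes, read 11.50 and 10.90 against 11.07 and 10.39 in control cells, with overlap between the groups (0.47 ± 0.45, adjusted p = 0.488). Stard4, a carrier of sterol between membranes, differed by 0.49 ± 0.36 (adjusted p = 0.371).

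In the fatty acid branch Fasn and Acaca rose and Acss2 and Elovl5 fell. Fasn, the synthase that assembles palmitate, read 12.31 and 12.32 on the stimulated arrays and 10.15 and 9.98 on the control arrays, 4.75-fold higher (2.25 ± 0.29, adjusted p = 0.0102). Acaca, the acetyl-CoA carboxylase that supplies malonyl-CoA, read 10.01 and 10.23 in stimulated cells and 8.50 and 8.08 in control cells, 3.55-fold higher (1.83 ± 0.32, adjusted p = 0.0163). Both genes of the synthesis step thus rose, although a second and dimmer probe set of Acaca differed by 0.42 (adjusted p = 0.615 in the fit over all probe sets). Acss2, which makes acetyl-CoA from acetate, went the other way, at 6.83 and 6.17 in stimulated cells against 9.32 and 9.38 in control cells. It was 7.22-fold lower (-2.85 ± 0.45, adjusted p = 0.0137), and its second probe set also fell (-3.82, adjusted p = 0.0196 in the fit over all probe sets). Elovl5, an elongase of polyunsaturated fatty acids, read 11.45 and 10.94 in stimulated cells and 12.62 and 12.63 in control cells, 2.70-fold lower (-1.43 ± 0.26, adjusted p = 0.0180).

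The other 7 fatty acid genes did not pass in stimulated against control cells. Acly, which makes acetyl-CoA from citrate, read 12.77 and 12.76 in stimulated cells and 12.48 and 12.41 in control cells (0.32 ± 0.28, adjusted p = 0.455). The desaturase gene Fads1, which serves polyunsaturated fatty acids, read 8.85 and 8.59 in stimulated cells and 9.48 and 9.69 in control cells (-0.87 ± 0.29, adjusted p = 0.0806). Me1, the malic enzyme that yields NADPH, differed by -0.57 ± 0.23 (adjusted p = 0.129). On both stimulated arrays Acly was higher, and Fads1, Me1, Scd1 and Scd2 were lower, than on either control array. Scd2 (-0.27 ± 0.26), Elovl6 (0.22 ± 0.55), Scd1 (-0.91 ± 0.93) and Fads2 (0.46 ± 0.58) had adjusted p between 0.488 and 0.808.

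The calls over all genes leaned on the control arrays and on stimulated replicate 2, and the count of 12 members with them. Without control replicate 1 or control replicate 2 no member and none of the 13983 genes passed in limma. At an unadjusted p under 0.05 there were then 12 members in either case (36.4%), beside 27.1% and 27.3% of all genes. Without stimulated replicate 2, 3 members passed and 4.86% of all genes. The 3' minus 5' log2 signal of the actin control probe sets, a gauge of RNA integrity and labelling, was 0.334 and 0.331 on the stimulated arrays, below the 0.473 and 0.614 of the control arrays and below every other array. That of the Gapdh control probe sets was -0.494 and -0.324 on the stimulated arrays and -0.525 and -0.407 on the control arrays, with overlap. The part of RNA integrity and labelling in these differences was not tested.

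**Figure D2:**
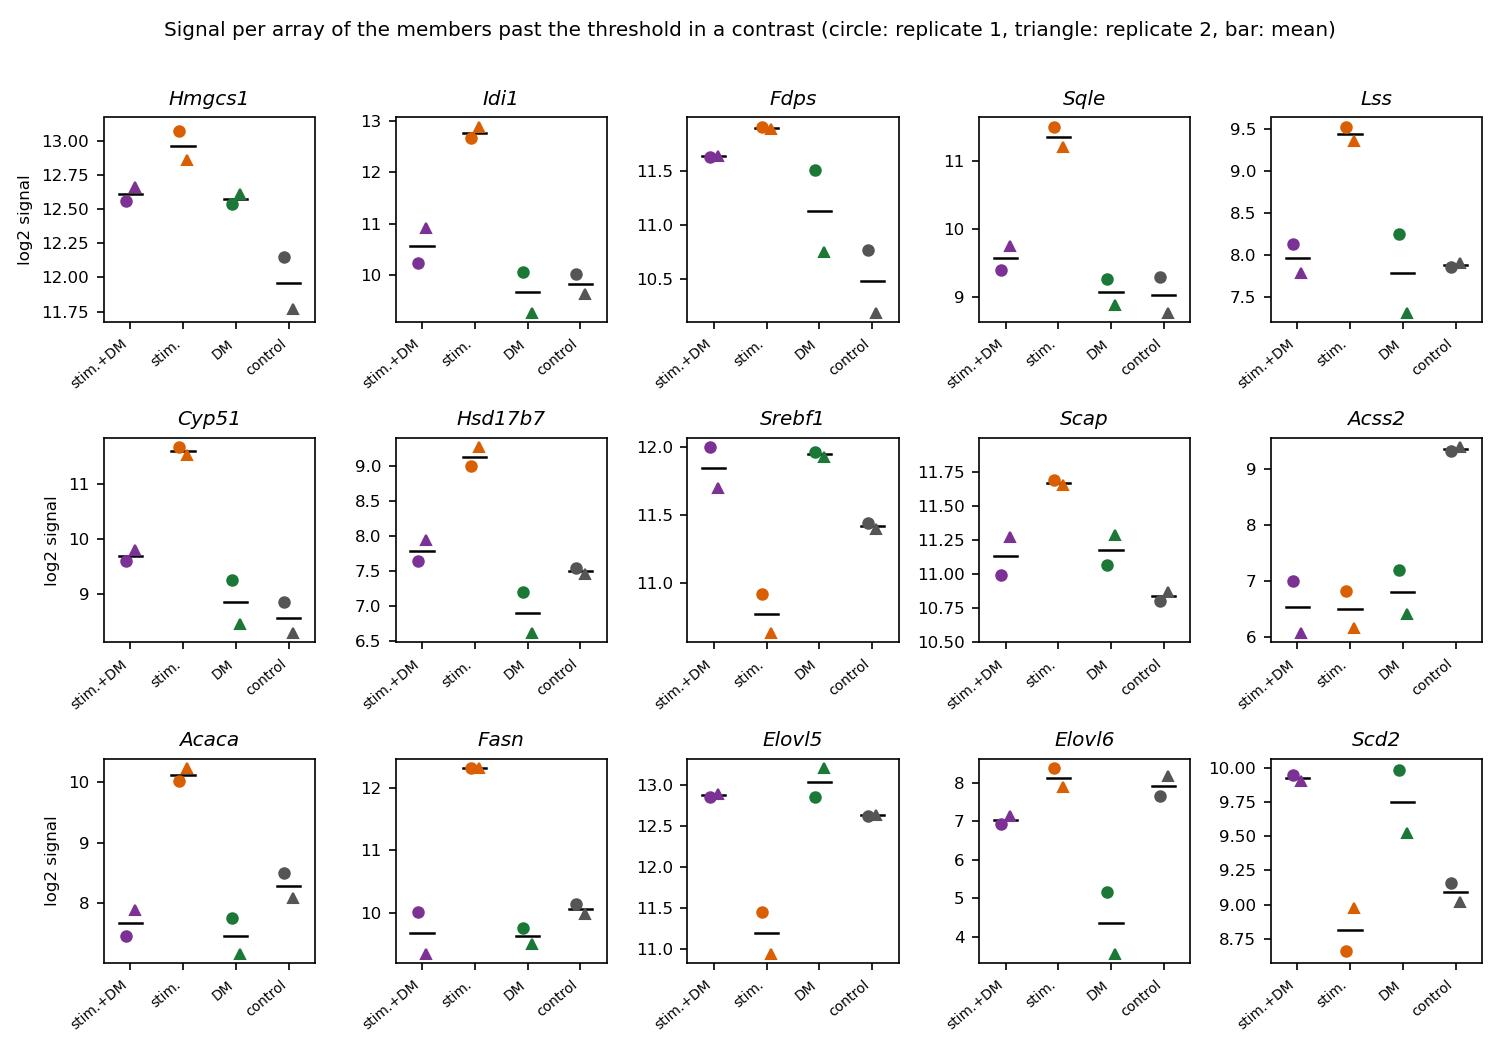
Log2 signal on each array of the 15 genes that passed the test in at least 1 comparison of groups. In each panel the groups run from stimulated with dorsomorphin (stim.+DM) through stimulated and dorsomorphin (DM) to control. Circles are replicate 1, triangles replicate 2 and bars the group mean, and each panel has its own vertical range. Cyp51, Idi1, Sqle, Lss, Hsd17b7, Acaca and Fasn stand highest on the stimulated arrays, while Elovl5 and Srebf1 stand lowest there and Acss2 is high only on the control arrays.

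The start regions of 6 of these genes are printed because they cover each way the genes behaved on stimulation: sterol and fatty acid genes that rose (Cyp51, Idi1, Hmgcs1, Lss and Fasn) and the gene that fell most (Acss2). Each runs from 250 bases before to 50 bases after the annotated start, read on the strand of the gene, from RefSeq on GRCm38.p6. Capitals mark matches, on either strand, to TCACNCCAC (a form of the sterol regulatory element), ATCACC (the opening letters of the classical element), CCAAT (bound by NF-Y), GGGCGG (a GC box, bound by Sp1) and CACGTG (an E-box). The letters were chosen after these sequences were seen. A match is a description of the letters only.
Cyp51: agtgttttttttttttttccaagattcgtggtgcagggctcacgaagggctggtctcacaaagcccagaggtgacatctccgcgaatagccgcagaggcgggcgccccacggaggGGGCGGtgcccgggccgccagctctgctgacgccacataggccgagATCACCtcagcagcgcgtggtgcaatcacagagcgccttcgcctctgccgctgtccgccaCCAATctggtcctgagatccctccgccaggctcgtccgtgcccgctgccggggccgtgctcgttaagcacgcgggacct
Idi1: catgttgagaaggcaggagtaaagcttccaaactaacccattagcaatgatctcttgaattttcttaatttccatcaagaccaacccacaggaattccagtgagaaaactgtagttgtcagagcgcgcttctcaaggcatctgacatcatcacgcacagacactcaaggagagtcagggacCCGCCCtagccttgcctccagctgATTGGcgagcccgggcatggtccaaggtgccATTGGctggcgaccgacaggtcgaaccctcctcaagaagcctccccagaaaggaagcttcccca
Hmgcs1: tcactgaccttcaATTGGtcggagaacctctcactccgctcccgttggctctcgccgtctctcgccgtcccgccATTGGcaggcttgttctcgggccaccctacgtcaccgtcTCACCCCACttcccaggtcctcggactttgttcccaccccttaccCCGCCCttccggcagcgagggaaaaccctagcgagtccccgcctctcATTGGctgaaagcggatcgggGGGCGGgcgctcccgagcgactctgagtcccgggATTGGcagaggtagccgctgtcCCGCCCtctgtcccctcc
Lss: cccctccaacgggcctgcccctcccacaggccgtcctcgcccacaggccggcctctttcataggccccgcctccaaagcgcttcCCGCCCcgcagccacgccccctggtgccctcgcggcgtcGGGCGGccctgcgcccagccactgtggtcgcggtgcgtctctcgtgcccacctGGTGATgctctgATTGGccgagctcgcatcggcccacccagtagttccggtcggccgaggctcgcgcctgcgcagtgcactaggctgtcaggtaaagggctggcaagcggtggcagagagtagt
Fasn: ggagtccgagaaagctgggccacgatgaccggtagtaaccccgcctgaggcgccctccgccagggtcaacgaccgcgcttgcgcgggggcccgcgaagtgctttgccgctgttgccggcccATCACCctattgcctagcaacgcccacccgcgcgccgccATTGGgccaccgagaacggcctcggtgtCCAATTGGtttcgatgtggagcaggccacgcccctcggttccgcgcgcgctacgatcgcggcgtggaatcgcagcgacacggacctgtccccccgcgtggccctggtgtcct
Acss2: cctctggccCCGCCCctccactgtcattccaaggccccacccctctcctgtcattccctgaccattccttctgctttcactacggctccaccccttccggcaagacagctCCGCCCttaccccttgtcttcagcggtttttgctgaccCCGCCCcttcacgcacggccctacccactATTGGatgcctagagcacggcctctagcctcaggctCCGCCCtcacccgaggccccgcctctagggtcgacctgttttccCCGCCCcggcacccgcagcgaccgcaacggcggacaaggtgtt

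These windows lie at chr5:4104648-4104947 on the minus strand for Cyp51, chr13:8885356-8885655 on the plus strand for Idi1, chr13:119690101-119690400 on the plus strand for Hmgcs1, chr10:76531355-76531654 on the plus strand for Lss, chr11:120824498-120824797 on the minus strand for Fasn and chr2:155517793-155518092 on the plus strand for Acss2. In Hmgcs1 the element TCACCCCAC begins 137 bases before the start. ATCACC begins 89 bases before it in Cyp51 and 129 bases before it in Fasn, and in Lss its complement begins 74 bases before it. In Fasn a pair of CCAAT matches on opposite strands overlap and print as CCAATTGG. No window printed held CACGTG, and Idi1 and Acss2 held only CCAAT and GGGCGG matches. RefSeq windows were matched for 26 of the 33 genes, 33 windows in all. CCAAT was in 23 of them (69.7%) and in 37.4% of the 32851 windows of all genes, and GGGCGG was in 23 of them (69.7%) and in 35.7% of all windows. ATCACC was in 6 (18.2%) beside 9.98% of all windows, TCACNCCAC in 1 (3.03%) beside 1.24%, and CACGTG in 7 (21.2%) beside 7.15%.

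Dorsomorphin in stimulated cells lowered 7 of the 33 genes and raised 3. Among all tested genes, 12.4% passed downwards, 9.71% upwards and 22.1% in either direction. Idi1, Sqle, Lss, Cyp51, Hsd17b7, Acaca and Fasn fell, and Elovl5, Scd2 and Srebf1 rose. This comparison uses the same stimulated arrays as the one before, so a gene that is high on them tends to rise in that comparison and fall in this, and the opposite directions are not separate evidence. With each array centred on its median 1 gene rose and 7 fell, and the split over all genes became 689 higher and 1520 lower, beside 1358 higher and 1738 lower as deposited. The median difference, stimulated with dorsomorphin minus stimulated, was -0.35 over the sterol branch, 0.04 over the fatty acid branch and -0.54 over the sensing genes, beside 0.07 over all tested genes. The fatty acid median was -0.22 after median centring, so its sign again depended on the scaling. It also depended on single arrays, at -0.42 and 0.50 without replicate 1 or 2 of the stimulated cells with dorsomorphin and at 0.37 and -0.29 without replicate 1 or 2 of the stimulated cells.

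Fasn and Acaca had the largest falls among the members in this fit. Across the alternative settings the difference of Acaca ran from -2.70 to -1.06. Fasn read 10.02 and 9.36 on the arrays of stimulated cells with dorsomorphin and 12.31 and 12.32 on those of stimulated cells, 6.18-fold lower (-2.63 ± 0.29, adjusted p = 0.00622). Acaca read 7.46 and 7.89 with the inhibitor and 10.01 and 10.23 in stimulated cells, 5.44-fold lower (-2.44 ± 0.32, adjusted p = 0.00804). Its second and dimmer probe set did not fall, with a difference of 0.33 (adjusted p = 0.707 in the fit over all probe sets). On the control arrays Fasn read 10.15 and 9.98, overlapping the arrays with antibodies and inhibitor, and Acaca read 8.50 and 8.08, above both of them, with no test run on that difference.

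In the sterol branch 5 of 17 genes fell and none rose. Idi1 read 10.24 and 10.91 in stimulated cells with dorsomorphin and 12.67 and 12.89 in stimulated cells, 4.61-fold lower (-2.20 ± 0.38, adjusted p = 0.0145). Cyp51 read 9.59 and 9.80 with the inhibitor and 11.67 and 11.52 in stimulated cells, 3.74-fold lower (-1.90 ± 0.35, adjusted p = 0.0172). Both stayed separate from the stimulated arrays by more than 1 log2 unit. Sqle read 9.40 and 9.75 with the inhibitor and 11.50 and 11.21 in stimulated cells (-1.78 ± 0.30, adjusted p = 0.0137). Lss read 8.12 and 7.79 with the inhibitor and 9.52 and 9.35 in stimulated cells (-1.48 ± 0.35, adjusted p = 0.0340). Hsd17b7 read 7.64 and 7.94 with the inhibitor and 9.0 and 9.26 in stimulated cells (-1.34 ± 0.28, adjusted p = 0.0249). None of these 5 genes had overlapping groups, and neither had Pmvk and Dhcr7, which did not pass. The second probe set of Lss differed by -1.02 (adjusted p = 0.326 in the fit over all probe sets).

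Hmgcs1 and Fdps, which had risen with stimulation, did not pass here. Hmgcs1 read 12.56 and 12.67 in stimulated cells with dorsomorphin and 13.08 and 12.86 in stimulated cells (-0.35 ± 0.23, adjusted p = 0.335). Fdps read 11.63 and 11.64 with the inhibitor and 11.91 and 11.88 in stimulated cells (-0.26 ± 0.34, adjusted p = 0.631). Both were lower on each inhibitor array, by less than the test could call. Scap read 10.99 and 11.27 with the inhibitor and 11.69 and 11.65 in stimulated cells (-0.54 ± 0.22, adjusted p = 0.138). Pmvk, at 7.71 and 7.81 with the inhibitor and 8.85 and 9.10 in stimulated cells, differed by more (-1.21 ± 0.40) with an adjusted p of 0.0841. Dhcr7 lay on the other side, at 9.28 and 9.84 with the inhibitor and 8.55 and 8.80 in stimulated cells (0.89 ± 0.29, adjusted p = 0.0827). The 8 sterol genes not yet named in this comparison differed by -0.66 to 0.43. Ggps1 differed by 0.43 ± 0.26, while another of its probe sets read 9.56 and 9.49 with the inhibitor and 8.31 and 8.37 in stimulated cells, a rise of 1.19 (adjusted p = 0.0169 in the fit over all probe sets). The second probe set of Sc5d differed by 1.42 (adjusted p = 0.0125 in the fit over all probe sets), while the first differed by 0.10 ± 0.22.

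Srebf1 rose. It read 12.00 and 11.70 in stimulated cells with dorsomorphin and 10.92 and 10.63 in stimulated cells, 2.10-fold higher (1.07 ± 0.23, adjusted p = 0.0252). In the same comparison Idi1, Sqle, Lss, Cyp51, Hsd17b7, Acaca and Fasn fell, while Elovl5 and Scd2 also rose. Srebf2 read 10.64 and 10.02 with the inhibitor and 11.50 and 10.90 in stimulated cells (-0.88 ± 0.45, adjusted p = 0.220). The test of this gene turned on how the replicates are treated: with the replicate number as a block the adjusted p was 0.0298. Insig1 read 10.62 and 10.23 with the inhibitor and 11.27 and 11.03 in stimulated cells (-0.72 ± 0.37, adjusted p = 0.220), and Stard4 differed by -0.09 ± 0.36.

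Of the 9 genes of acetyl-CoA supply, elongation and desaturation, Elovl5 and Scd2 passed here, and no test compared them with Fasn and Acaca. Elovl5 read 12.86 and 12.89 in stimulated cells with dorsomorphin and 11.45 and 10.94 in stimulated cells, 3.20-fold higher (1.68 ± 0.26, adjusted p = 0.0117). Scd2, a desaturase that makes monounsaturated fatty acids, read 9.95 and 9.90 with the inhibitor and 8.66 and 8.98 in stimulated cells, 2.16-fold higher (1.11 ± 0.26, adjusted p = 0.0312). Both rose without overlap of the groups, and Me1 and Fads1, which did not pass, were also without overlap. Acss2 stayed low, at 7.0 and 6.08 with the inhibitor and 6.83 and 6.17 in stimulated cells, and the groups overlapped (0.04 ± 0.45, adjusted p = 0.959). Elovl6, which lengthens palmitate to stearate, read 6.93 and 7.13 with the inhibitor and 8.39 and 7.89 in stimulated cells (-1.11 ± 0.55, adjusted p = 0.207). A second probe set of Elovl6 passed, with a difference of -1.56 (adjusted p = 0.0303 in the fit over all probe sets). Acly (-0.61 ± 0.28), Me1 (0.66 ± 0.23), Fads1 (0.44 ± 0.29), Scd1 (1.08 ± 0.93) and Fads2 (-0.85 ± 0.58) had adjusted p between 0.0941 and 0.458.

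The calls again leaned on single arrays, over all genes as well as among the 10 members. There were 6 members without control replicate 1 or control replicate 2 (12.5% of all genes in either case), 6 without stimulated replicate 1 (18.9%) and 4 without stimulated replicate 2 (8.15%). There were 2 without replicate 1 (7.15%) and 5 without replicate 2 (12.6%) of the stimulated cells with dorsomorphin. With only the 4 arrays compared, none of the 13983 genes passed in limma, and 12 members (36.4%) and 28.9% of all genes were under an unadjusted p of 0.05. The actin 3' minus 5' log2 signal was 0.493 and 0.687 in stimulated cells with dorsomorphin and 0.334 and 0.331 in stimulated cells. That of Gapdh overlapped, at -0.459 and -0.424 with the inhibitor and -0.494 and -0.324 in stimulated cells. Of 9 CD4+ T cell markers, 3 fell and 1 rose. The part of RNA integrity, labelling and these markers in the result was not tested.

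**Figure D3:**
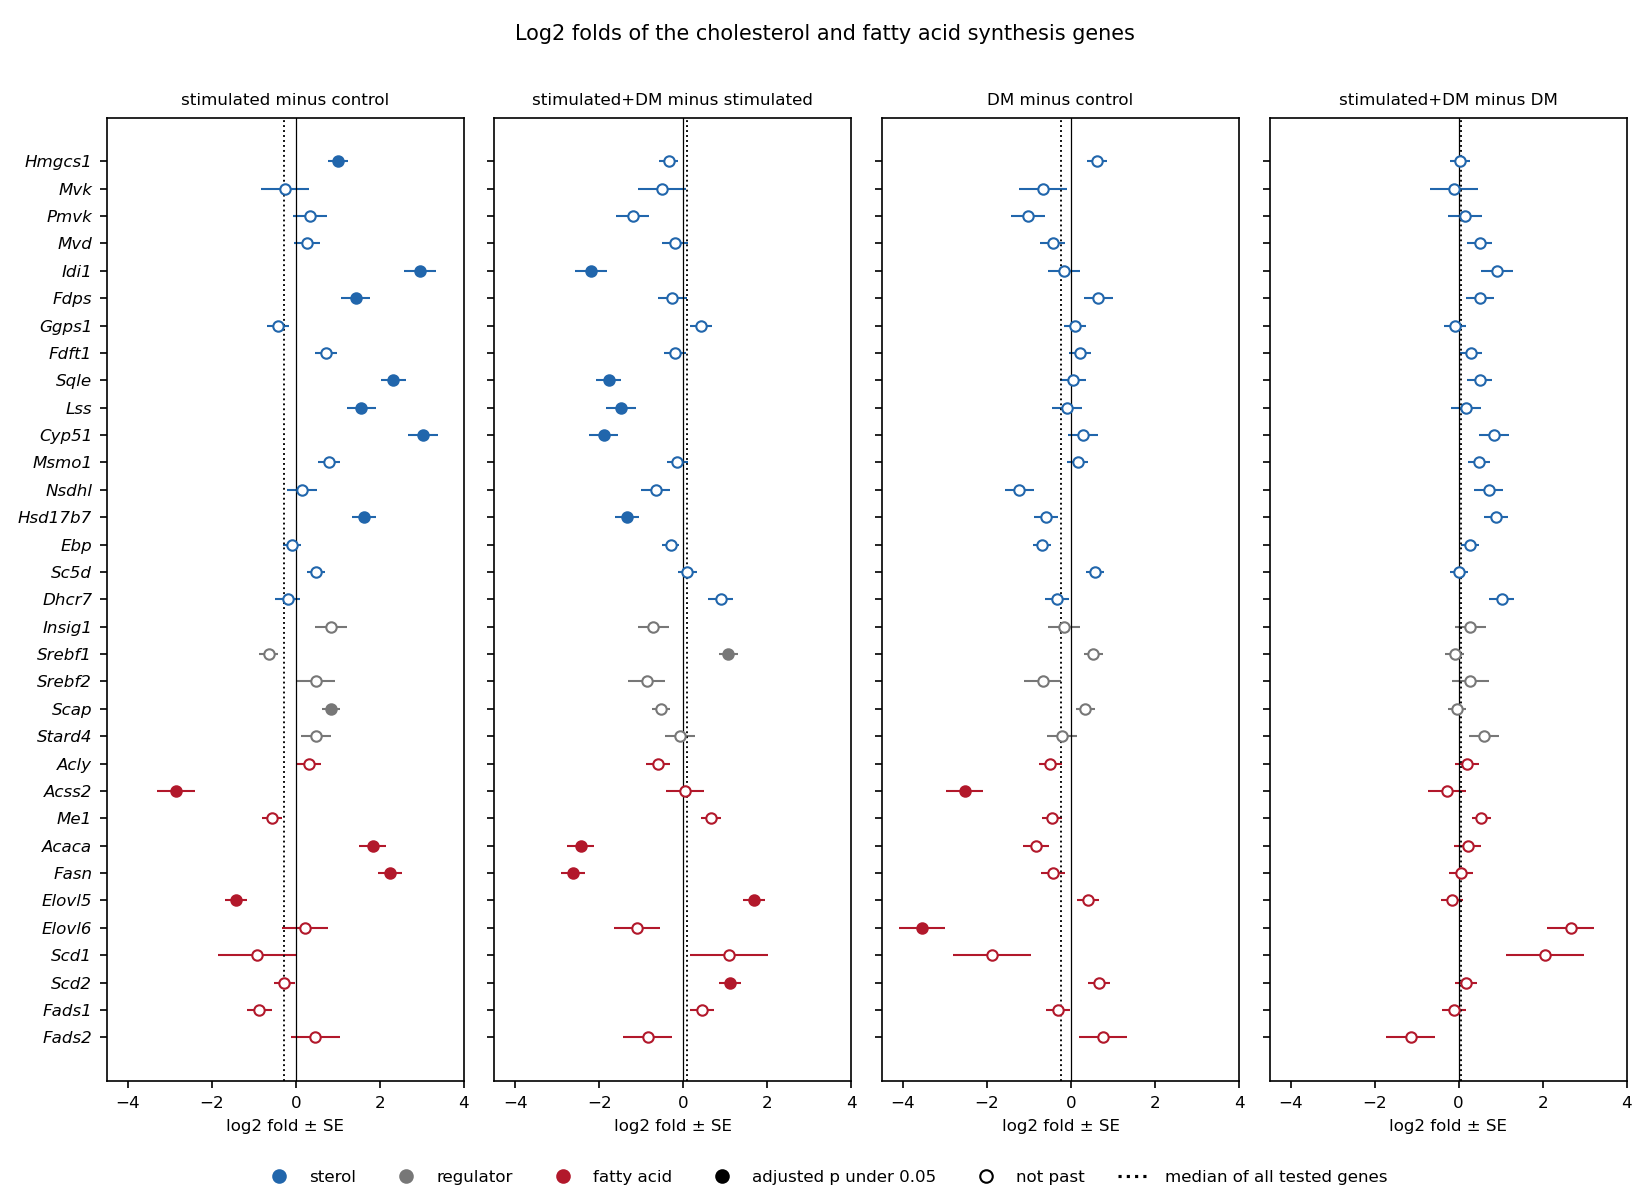
Log2 difference of the 33 genes in 4 comparisons, with bars of 1 SE. Panels from left to right are stimulated minus control, stimulated with dorsomorphin minus stimulated, dorsomorphin minus control, and stimulated with dorsomorphin minus dorsomorphin. Filled points have an adjusted p under 0.05 and dotted lines mark the median of all tested genes. There are 12 filled points in the first panel, 10 in the second, 2 in the third and 0 in the last. Both dorsomorphin arrays of Elovl6 are under the floor, so its points in the third and the last panel are fitted values only.

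In unstimulated cells dorsomorphin lowered 2 of the 33 genes and raised none. Among all tested genes 11.1% passed downwards, 1.92% upwards and 13.1% in either direction. Acss2 read 7.21 and 6.42 on the dorsomorphin arrays and 9.32 and 9.38 on the control arrays, 5.80-fold lower (-2.54 ± 0.45, adjusted p = 0.0245). Elovl6 read 5.16 and 3.57 on the dorsomorphin arrays, both under the floor, and 7.65 and 8.19 on the control arrays. Its signal was at least 6.50-fold lower (adjusted p = 0.0191), taking each dorsomorphin array at the floor. A second probe set of Elovl6 differed by -1.19 (adjusted p = 0.0830 in the fit over all probe sets). The comparison shares its control arrays with that of stimulation, and Acss2 was low in all 3 groups that were stimulated, treated or both.

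The genes that fell with dorsomorphin in stimulated cells read as follows in unstimulated cells. Fasn read 9.77 and 9.51 in dorsomorphin-treated cells and 10.15 and 9.98 in control cells (-0.43 ± 0.29, adjusted p = 0.370). Acaca read 7.75 and 7.17 in dorsomorphin-treated cells and 8.50 and 8.08 in control cells (-0.83 ± 0.32, adjusted p = 0.138). Both were lower on each dorsomorphin array without passing. Idi1 (-0.16 ± 0.38), Cyp51 (0.29 ± 0.35), Sqle (0.05 ± 0.30) and Lss (-0.10 ± 0.35) had overlapping groups, with adjusted p between 0.628 and 0.942. A dim further probe set of Cyp51 went against that: it read 2.81 and 3.35 in dorsomorphin-treated cells, under the floor, and 6.28 and 5.63 in control cells, at least 1.66-fold lower (adjusted p = 0.0122 in the fit over all probe sets). Hsd17b7 read 7.20 and 6.61 in dorsomorphin-treated cells and 7.55 and 7.46 in control cells (-0.60 ± 0.28, adjusted p = 0.215).

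Several other members lay apart from control without passing. Nsdhl, which removes a carboxyl group from the sterol, read 8.96 and 8.0 in dorsomorphin-treated cells and 9.77 and 9.65 in control cells (-1.23 ± 0.35, adjusted p = 0.0719). Ebp, a sterol isomerase, read 10.49 and 10.22 in dorsomorphin-treated cells and 11.05 and 11.04 in control cells (-0.68 ± 0.21, adjusted p = 0.0895). Pmvk read 8.17 and 7.04 in dorsomorphin-treated cells and 8.81 and 8.47 in control cells (-1.03 ± 0.40, adjusted p = 0.146). Those 3 were lower on both dorsomorphin arrays, whereas Hmgcs1 (0.62 ± 0.23), Sc5d (0.57 ± 0.22) and Scd2 (0.67 ± 0.26) were higher on both, with adjusted p of 0.135, 0.143 and 0.141. Srebf1 read 11.96 and 11.93 in dorsomorphin-treated cells and 11.44 and 11.40 in control cells (0.53 ± 0.23, adjusted p = 0.180). In all, 9 members (27.3%) were under an unadjusted p of 0.05, beside 31.4% of all tested genes. The median difference, dorsomorphin minus control, was -0.10 over the sterol branch, -0.45 over the fatty acid branch and -0.17 over the sensing genes, beside -0.24 over all tested genes, and the sterol median was 0.12 after median centring. It was -0.55 without dorsomorphin replicate 1, 0.24 without dorsomorphin replicate 2, 0.03 without control replicate 1 and -0.21 without control replicate 2.

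The calls depended on the arrays kept. Without control replicate 1 or control replicate 2 no member and none of the 13983 genes passed in limma, with 3 members (9.09%) at an unadjusted p under 0.05 in either case, beside 21.5% and 20.3% of all genes. Without dorsomorphin replicate 2 no member passed, with 5 at an unadjusted p under 0.05, and 210 of all genes did. Without dorsomorphin replicate 1, 5 members passed and 8.38% of all genes. Of 9 CD4+ T cell markers, 5 fell with dorsomorphin, and 2 of 10 myeloid and dendritic cell markers fell. Their part in the fall of Acss2 and Elovl6 was not tested.

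With dorsomorphin present in both arms, stimulation changed no member past the threshold, and none of the 13983 genes (0%) passed in limma. At an unadjusted p under 0.05 there were 539 genes (3.85%) and 3 members (9.09%). Elovl6 was at 6.93 and 7.13 in stimulated cells with dorsomorphin and 5.16 and 3.57 in dorsomorphin-treated cells, both under the floor, and so was at least 3.5-fold higher (unadjusted p = 0.00303 and adjusted p = 0.603). Dhcr7 was at 9.28 and 9.84 in stimulated cells with dorsomorphin and 8.75 and 8.31 in dorsomorphin-treated cells (1.03 ± 0.29, unadjusted p = 0.0132). Hsd17b7 was at 7.64 and 7.94 in stimulated cells with dorsomorphin and 7.20 and 6.61 in dorsomorphin-treated cells (0.88 ± 0.28, unadjusted p = 0.0216). Each of the 3 was higher on both stimulated arrays. The median difference was 0.49 over the sterol branch, 0.17 over the fatty acid branch and 0.06 over all tested genes. Without dorsomorphin replicate 1 the branch medians were 0.69 and 0.40, and without dorsomorphin replicate 2 they were 0.18 and -0.07. All 10 genes from squalene onwards were above 0, from 0.01 in Sc5d to 1.03 in Dhcr7, as were 8041 of all 13983 tested genes. The groups overlapped in Fdft1, Lss and Sc5d. Idi1 (0.91 ± 0.38), Cyp51 (0.84 ± 0.35) and Sqle (0.50 ± 0.30) lay between those values without passing. Fasn (0.05 ± 0.29) and Acaca (0.22 ± 0.32) had overlapping groups.

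Whether dorsomorphin acted differently in stimulated and unstimulated cells was tested as the interaction, its effect in stimulated minus its effect in unstimulated cells. No member passed, and 12 of the 13983 genes did (0.0858%), 5 upwards (0.0358%) and 7 downwards (0.0501%). At an unadjusted p under 0.05 there were 13 members (39.4%), beside 26.4% of all genes. Fasn had the smallest p among the members, with an effect of -2.63 in stimulated and -0.43 in unstimulated cells (difference -2.20 ± 0.41, adjusted p = 0.0647). Cyp51 had effects of -1.90 and 0.29 (difference -2.19 ± 0.50, adjusted p = 0.0804), and Sqle effects of -1.78 and 0.05 (-1.83 ± 0.43, adjusted p = 0.0817). Idi1 (-2.04 ± 0.54) and Acaca (-1.61 ± 0.45) had adjusted p of 0.0957 and 0.102. On the other side stood Acss2, with an effect of 0.04 in stimulated and -2.54 in unstimulated cells (2.58 ± 0.63, adjusted p = 0.0876), and Elovl5 (1.28 ± 0.37, adjusted p = 0.107). A difference in the dorsomorphin effect between activation states was thus not called for any of them with these arrays, and the count of members called was 1 to 8 under 4 of the alternative settings. The calls over all genes depended on the setting even more, from 0 under median centring or the replicate block to 1867 of 9640 (19.4%) with the 60th percentile filter and 2036 (14.6%) with trend and robust settings.

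Array by array, the branches were summarised as the median difference of their genes from each gene's own mean over the 8 arrays. For the sterol branch this was -0.05 and 0.11 in stimulated cells with dorsomorphin, 0.55 and 0.43 in stimulated cells, -0.09 and -0.72 in dorsomorphin-treated cells and -0.24 and -0.37 in control cells. The 2 stimulated arrays were thus the highest, with 15 and 14 of 17 sterol genes above their own mean. Of all 13983 tested genes, 7672 and 6021 were above theirs on those arrays. For the fatty acid branch the medians were 0.17 and -0.26 in stimulated cells with dorsomorphin, 0.37 and -0.24 in stimulated cells, -0.05 and -0.70 in dorsomorphin-treated cells and 0.19 and 0.20 in control cells. There the groups overlapped, and replicate 2 was lower than replicate 1 in every group but the control. Over all tested genes the same medians ran from -0.16 on stimulated replicate 2 to 0.25 on control replicate 1.

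In all, 15 of the 33 genes passed the test in at least 1 comparison of groups and 18 in none, while 36.7% of all tested genes passed in at least 1. More than 1 probe set was present for 25 of the genes, with 46 further probe sets, of which 41 were bright enough to test. For Cyp51, Idi1, Elovl5 and Acss2 the second probe set moved in the direction of the first in stimulated against control cells. A dim second probe set of Scap moved with the first on stimulation without passing (adjusted p = 0.0633 in the fit over all probe sets). With dorsomorphin in stimulated cells it went against the first. There it read 7.11 and 7.14 in stimulated cells with dorsomorphin and 5.78 and 5.87 in stimulated cells, a rise of 1.30 (adjusted p = 0.0298 in the fit over all probe sets). In unstimulated cells both probe sets were higher with dorsomorphin, the first without passing. The second read 7.10 and 7.0 with dorsomorphin and 4.48 and 5.17 in control cells, under the floor, at least 3.56-fold higher (adjusted p = 0.0143 in the fit over all probe sets).

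Neighbouring genes of SREBP processing were set beside the members. Of 9 tested, 2 fell with stimulation and none rose, 2 rose and 2 fell with dorsomorphin in stimulated cells, and 1 rose and 2 fell with dorsomorphin in unstimulated cells. Over all tested genes the shares were 14.4% lower on stimulation, 9.71% higher and 12.4% lower with dorsomorphin in stimulated cells, and 1.92% higher and 11.1% lower in unstimulated cells, so counts this small lie near them. Mbtps2, the protease that makes the last cut to free SREBPs, read 8.24 and 8.04 in stimulated cells with dorsomorphin and 10.31 and 10.67 in stimulated cells (-2.36 ± 0.26, adjusted p = 0.00628). It read 8.07 and 7.65 in dorsomorphin-treated cells and 10.11 and 10.02 in control cells (-2.21 ± 0.26, adjusted p = 0.0120). Mbtps2 was thus low on all 4 arrays with dorsomorphin, whether or not the cells were stimulated. Insig2, the second INSIG anchor, was high on the same 4 arrays, at 10.81 and 11.00 in stimulated cells with dorsomorphin against 9.28 and 8.93 in stimulated cells (1.80 ± 0.23, adjusted p = 0.00764). In unstimulated cells it read 10.97 and 11.10 with dorsomorphin and 9.61 and 9.70 in control cells (1.38 ± 0.23, adjusted p = 0.0214). Erlin2, which encodes a membrane protein of the endoplasmic reticulum, fell with dorsomorphin in both states (-1.55 ± 0.30 in stimulated and -1.62 ± 0.30 in unstimulated cells).

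Of 9 other genes of sterol and isoprenoid synthesis, 1 rose and 1 fell with stimulation, close to the shares of 8.98% and 14.4% over all tested genes. Dhdds, which builds the dolichol chain from isoprenoids, rose (1.26 ± 0.30, adjusted p = 0.0333) and fell with dorsomorphin in stimulated cells (-2.28 ± 0.30, adjusted p = 0.00817). Lbr, a nuclear envelope protein that also reduces sterols, went the opposite way, with -1.46 ± 0.22 on stimulation and 1.21 ± 0.22 with dorsomorphin in stimulated cells. With dorsomorphin in unstimulated cells 2 of the 9 fell, beside 11.1% of all tested genes. They were Tm7sf2, the other reductase of the step of Lbr (-2.35 ± 0.44, adjusted p = 0.0277), and Dhdds (-1.40 ± 0.30, adjusted p = 0.0366). Dhdds was thus lower with dorsomorphin in both states. Of 14 genes of sterol efflux, uptake and storage, 6 fell with stimulation and none rose, beside 14.4% and 8.98% of all tested genes. Abca1 and Abcg1, transporters that export cholesterol and known targets of the liver X receptors, fell by 2.74 ± 0.50 and 3.36 ± 0.79, and Mylip, another such target, by 2.58 ± 0.52. Abca1 and Mylip also fell with dorsomorphin in unstimulated cells, by 2.96 ± 0.50 and 2.45 ± 0.52. Lipa, of the same list, fell with stimulation (-2.52 ± 0.31) but differed by only -0.35 ± 0.31 with dorsomorphin in unstimulated cells (adjusted p = 0.496). It rose with dorsomorphin in stimulated cells (2.27 ± 0.31, adjusted p = 0.00849), to near its control level. Abca1, Abcg1 and Mylip, like Acss2, thus read highest on the control arrays, and not every gene of the list that fell with stimulation was low in all other groups. The summed signal of every marker list was highest there too, and its part in these falls was not tested.

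**Figure D4:**
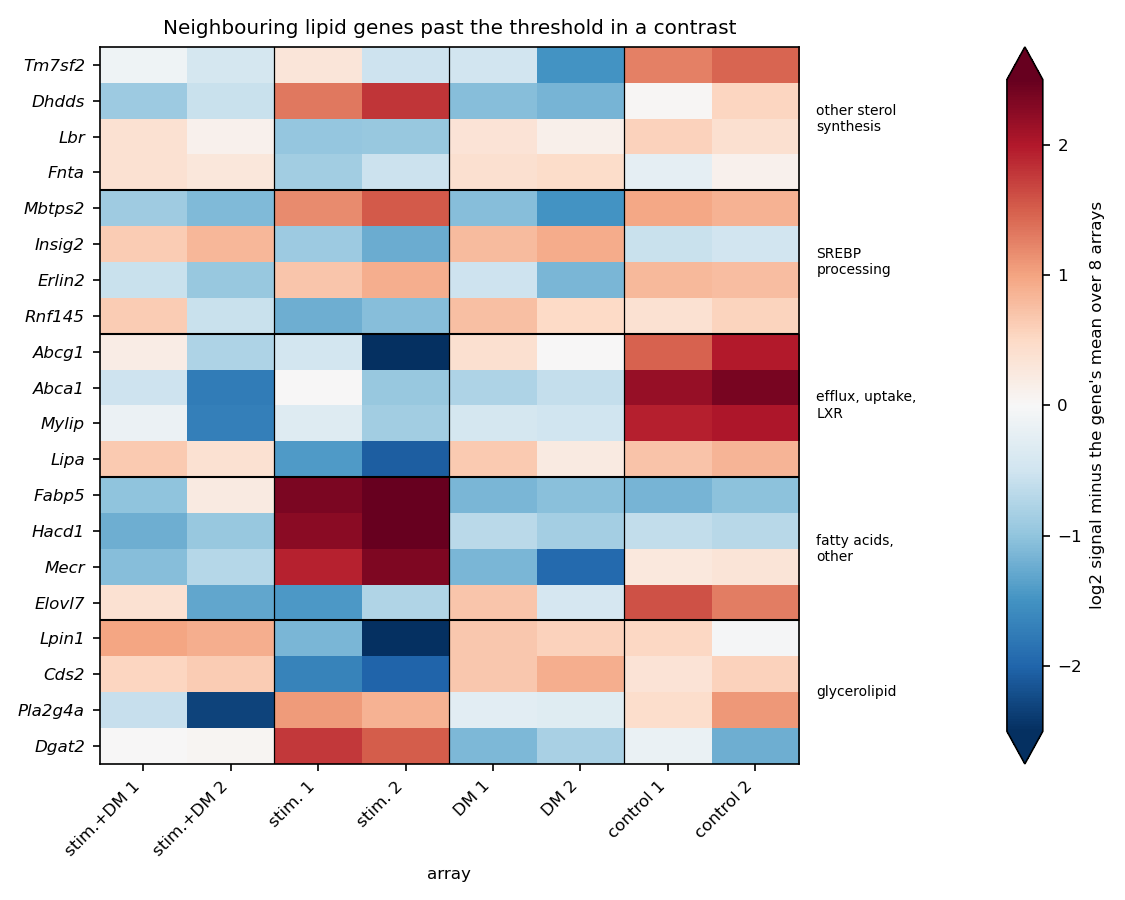
Log2 signal of the neighbouring lipid genes named by rule, up to 4 per list, each shown as its difference from its own mean over the 8 arrays. Columns run from stimulated with dorsomorphin (stim.+DM) through stimulated and dorsomorphin (DM) to control, and the colour scale ends at 2.5 log2 units in each direction. Mbtps2 is blue and Insig2 red on all 4 arrays with dorsomorphin, and Fabp5, Hacd1 and Mecr are reddest on both stimulated arrays.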

How the data were processed

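Total RNA of 8 samples was labelled with biotin by in vitro transcription and hybridised to Affymetrix arrays, per the labels' protocols. For each of 45101 probe sets the deposited table gives an intensity per array on a linear scale. The submitters' processing notes name RMA and the affy package, without versions. RMA output would be on a log2 scale, which the deposited intensities are not. Each array has a mean of 500 once 2% is trimmed at each end, and none of the sources used here gives the scaling step. Without detection calls the background level is unknown.

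Each deposited intensity was turned into its log2, with no further normalization. Genes were named through the platform annotation, with the probe set of highest mean per gene, and tested where it exceeded the 40th percentile of all values on at least 2 arrays. All 8 arrays entered 1 model with limma 3.58.1 in R 4.3.3 (no trend, not robust, 4 residual and 1.90 prior degrees of freedom). P-values are two-sided, with Benjamini-Hochberg adjustment over 13983 genes and a threshold of 0.05. The limma step was tested on simulated data. A bound against a group under the floor sets each of its arrays at the higher of the floor and its own value. Every member could be named, and of each list of other genes up to 4 past the threshold, by size of difference. The members, lists, markers and tests were chosen with earlier results of these data known. Alternatives were 3 other scalings, 2 filters, an offset of 32, probe sets averaged per gene, limma with trend and robust settings, only the 4 arrays compared, the replicate number as a block, and leaving out each array. Promoter windows came from RefSeq on GRCm38.p6. Figures were drawn with matplotlib 3.10.9 in Python 3.11.15.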

Additional observations from a re-analysis of the deposited data

How the results depend on the processing

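The counts of members called were 12 for stimulation, 10 for dorsomorphin in stimulated cells, 2 for dorsomorphin in unstimulated cells, 0 for stimulation with dorsomorphin present and 0 for the interaction. Dorsomorphin in unstimulated cells gave 4 with the 60th percentile filter, 5 with trend and robust settings, 1 with probe sets averaged per gene (Scap, higher) and 1 with only the 4 arrays compared. In those fits 30.8%, 22.2%, 8.38% and 6.31% of all genes passed. Dorsomorphin in stimulated cells gave 6 with probe sets averaged per gene and 0 with only the 4 arrays compared. The shares of all genes there were 19.1% and 0%. The interaction gave 1 under quantile normalization, 7 with the 60th percentile filter, 6 with an offset of 32 and 8 with trend and robust settings, while 2.75%, 19.4%, 11.2% and 14.6% of all genes passed in those fits. With each array left out in turn, the counts ranged from 0 to 10 for stimulation, 2 to 11 for dorsomorphin in stimulated cells, 0 to 5 for dorsomorphin in unstimulated cells, 0 to 0 for stimulation with dorsomorphin present and 0 to 0 for the interaction. A group left with 1 array was assumed to vary like the others. The causes were not tested, beyond the fewer arrays or genes in those fits. No called difference of a member changed sign under any alternative, but branch medians did. The fatty acid median for stimulation did so under median centring and quantile normalization. The fatty acid median for dorsomorphin in stimulated cells and the sterol median in unstimulated cells did so under median centring, cyclic loess and quantile normalization and with single arrays left out, the first also with the 60th percentile filter. The fatty acid median for stimulation with dorsomorphin present did so without dorsomorphin replicate 2. Of 24 calls of members in a comparison, 24 kept their side of the threshold under cyclic loess, the offset, trend and robust settings, the 60th percentile filter and the replicate block, 23 under quantile normalization, 20 under median centring, 17 with no filter, 14 with the mean of probe sets and 9 with only the 4 arrays compared.

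The labels number the replicates without saying what a number marks. Deviations of same-numbered arrays correlated at 0.0687 to 0.178 over 6 pairs of groups, 4 of them above 0.1. The 3' minus 5' log2 signal of the spiked control dap was 1.11 to 1.37 on the replicate 1 arrays and 2.44 to 2.79 on the replicate 2 arrays, and that of thr 1.62 to 1.76 and 2.69 to 3.29, so these controls split by number. As not every correlation was above 0.1, the numbers were not taken as a pairing. The replicate block gave 12, 11, 2, 0 and 0 members in the order above, beside 28.6%, 26%, 16.6%, 0% and 0% of all genes. Signals near the floor, those of Elovl6, Scd1 and Fads2, limit what can be measured.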

Other observations

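Of 21 other genes of fatty acid synthesis and activation, 4 rose and 1 fell with stimulation, and 7 fell and none rose with dorsomorphin in stimulated cells. The shares over all tested genes were 8.98% and 14.4% for stimulation, and 12.4% and 9.71% for dorsomorphin in stimulated cells. Fabp5, a fatty acid carrier, read 10.34 and 11.58 in stimulated cells with dorsomorphin, 13.70 and 14.16 in stimulated cells, 10.22 and 10.31 in dorsomorphin-treated cells and 10.18 and 10.32 in control cells. It was higher in stimulated than in control cells by 3.68 ± 0.43 (limma, adjusted p = 0.00926). Hacd1, a dehydratase of the elongation cycle, read 5.38 and 5.65 in stimulated cells with dorsomorphin, 8.86 and 9.34 in stimulated cells, 5.93 and 5.76 in dorsomorphin-treated cells and 5.99 and 5.90 in control cells. Both genes read highest on the arrays of stimulated cells without dorsomorphin. Fabp5 was next highest, at 11.58, on replicate 2 of the stimulated cells with dorsomorphin. Mecr, a reductase of mitochondrial fatty acid synthesis, differed by -3.02 ± 0.34 between stimulated cells with dorsomorphin and stimulated cells, and by -1.84 ± 0.34 between dorsomorphin-treated and control cells.

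Of 17 glycerolipid enzymes tested, 4 rose and 3 fell with stimulation, and 3 rose and 4 fell with dorsomorphin in stimulated cells. Over all tested genes 8.98% rose and 14.4% fell with stimulation, and 9.71% rose and 12.4% fell with dorsomorphin in stimulated cells. Dgat2, which adds the last fatty acid to triglyceride, differed by 2.33 ± 0.38 between stimulated and control cells. Lpin1, a phosphatase of the step before it, read 9.11 and 9.04 in stimulated cells with dorsomorphin, 6.99 and 5.63 in stimulated cells, 8.80 and 8.70 in dorsomorphin-treated cells and 8.64 and 8.09 in control cells. Cds2, which turns the same substrate towards phosphatidylinositol, read 12.02 and 12.12 in stimulated cells with dorsomorphin, 9.81 and 9.47 in stimulated cells, 12.14 and 12.39 in dorsomorphin-treated cells and 11.82 and 12.05 in control cells. Lpin1 and Cds2 were lowest on the stimulated arrays, by -2.05 ± 0.47 and -2.30 ± 0.24 against control cells, and no gene of either list passed the interaction test, in which 0.0858% of all tested genes did.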
